A study of Homo sapiens with 24 samples.

Results

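T-47D is an established luminal breast cancer cell line, and the arrays described here measured which genes heregulin β1 (HRG) still raised or lowered in these cells once P-Rex1 had been silenced with RNAi duplex #1. The members are 6 of the 24 arrays of the series, chosen by their labels: 3 biological replicates of cells with P-Rex1 RNAi #1 treated with HRG, and 3 of the same cells without HRG. All cells were serum starved and then received HRG at 20 ng/ml or PBS as vehicle for 6 h. The remaining arrays, again 3 per group, came from parental cells, cells with a non-target control duplex (NTC) and cells with a separate P-Rex1 duplex (#2), each with and without HRG. Silencing was by transient transfection of an RNAi duplex, so that it lowered *PREX1* RNA without abolishing it. All 24 RNAs were hybridised to Affymetrix Human Gene 1.0 ST arrays, and values are given as log2 expression after RMA, on which a step of 1 is a doubling.

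HRG binds the receptor ErbB3, which pairs with ErbB2 and signals through PI3K and the Ras/ERK cascade. P-Rex1 is a guanine nucleotide exchange factor that PI3K products and Gβγ activate at the membrane, where it loads the GTPase Rac with GTP. Rac drives actin assembly and membrane ruffling, and actin assembly in turn releases the cofactor MRTF, which works with the transcription factor SRF at genes of the contractile cytoskeleton. The comparison asked which part of the transcriptional response to HRG was still seen when P-Rex1 was low.

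*PREX1* itself was read at 9.09, 8.91 and 8.98 on the 3 vehicle arrays with RNAi #1, and the 6 vehicle arrays of parental and NTC cells read between 10.36 and 10.63. The groups did not overlap, and the mean was lower by 1.52 on the log2 scale than in these controls (SE 0.06; limma adjusted p = 1.61e-12), which leaves 34.9% of the control level. An exact two-sided permutation test of 3 against 6 arrays gave p = 0.0238, the smallest it allows. After HRG the 3 RNAi #1 arrays read 8.60, 8.45 and 8.55, lower by 0.97 than the controls with HRG (SE 0.06; limma adjusted p = 7.75e-09; exact permutation p = 0.0238). HRG by itself lowered *PREX1* in the controls, with a log2 effect of -1.05 in parental cells and -0.97 in NTC cells, and of -0.46 with RNAi #1. The level in silenced cells was therefore compared with controls of the same treatment.

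Some arrays lay apart from their group mates on the second principal component, which did not separate HRG from vehicle. Among the RNAi #1 arrays this was vehicle replicate 2, at -17.46 on it, with the other 2 vehicle arrays at 8.03 and -4.50. In the other cells NTC HRG replicate 3 (-16.81), parental vehicle replicate 3 (-13.86) and HRG replicates 1 and 3 of RNAi #2 (11.70 and -11.25) lay farthest out. Counts that moved without vehicle replicate 2 are given beside the results, and counts of called differences also without other arrays where these moved them by over 1.5-fold. No other RNA quality measure was at hand. Array medians spanned 6.04 to 6.18.

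HRG still changed a large set of genes with P-Rex1 RNAi #1. A probe set was called when its limma adjusted p was under 0.05 and its fold change over 1.5, over the 21042 probe sets with a gene symbol. 530 probe sets were higher with HRG, 2.52% of those tested, and 243 were lower, 1.15%. Together these were 3.67%. The higher ones stood for 488 genes and the lower ones for 213. Leaving out single arrays of the pair moved the higher count between 471 (without vehicle replicate 2) and 595 (without vehicle replicate 1). For the lower count the range was 216 (without HRG replicate 3) to 301 (without vehicle replicate 2). On all 530 and all 243 of these probe sets the 3 HRG arrays lay on one side of the 3 vehicle arrays, which was also so for 39.6% of all probe sets tested. Over all probe sets the median HRG effect was -0.033. With RNAi #1, 117 probe sets rose and 23 fell by more than 2-fold, and 7 rose and 1 fell by more than 4-fold.

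The strongest rise was that of *GLIPR1*, a secreted cysteine-rich protein first described in glioma. It read 6.79, 6.39 and 6.48 on the vehicle arrays and 10.87, 10.90 and 11.16 on the HRG arrays. The groups were far apart, with a log2 effect of 4.43 (SE 0.20; limma adjusted p = 1.12e-12), or 21.5-fold. *SYTL2*, a Rab27 effector of vesicle transport, read 5.87, 5.63 and 5.80 with vehicle and 8.76, 8.86 and 8.89 with HRG. Its effect was 3.07 (SE 0.11; limma adjusted p = 2.65e-14), or 8.4-fold. *DUSP6*, the cytoplasmic phosphatase that switches off ERK, read 5.37, 5.70 and 6.03 with vehicle and 8.46, 8.78 and 9.05 with HRG. The spread between its replicates was wider, and the groups still stood well apart, with an effect of 3.06 (SE 0.25; limma adjusted p = 7.96e-09).

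Next came *ITGB6*, the β6 integrin chain of epithelia, with a log2 effect of 2.49, *ANXA1*, a phospholipid-binding annexin, with 2.45, and *MAP1B*, a microtubule-associated protein, with 2.23. Of the remaining genes among the 15 with the largest rises, *SERPINB8* (1.89) and *SERPINA3* (1.88) encode protease inhibitors, *GPAT3* (1.84) an acyltransferase of glycerolipid synthesis, *TMPRSS11E* (1.84) a serine protease and *CLIC6* (1.78) a chloride channel protein. *MMP10* (1.78) encodes stromelysin 2, *LYN* (1.73) a Src family kinase, *MIR21* (1.73) a microRNA gene and *GPRC5A* (1.67) an orphan receptor. *TMPRSS11E* has 2 probe sets, with effects of 1.84 and 1.83. Signal from a near-identical copy could not be told apart on such probes.

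The largest falls were fewer and smaller. *RANBP3L*, a RanBP3-related export factor, read 7.46, 6.89 and 7.36 with vehicle and 4.88, 4.73 and 4.58 with HRG. Its effect was -2.51 (SE 0.16; limma adjusted p = 3.2e-10), and it was the 1 gene that fell by more than 4-fold. *CAB39L*, a scaffold of the kinase LKB1, had an effect of -1.87. *KLHL24*, a ubiquitin ligase adaptor, had -1.76, and *ANKFN1* had -1.74. The others of the 15 were *TENM2*, *DLG2*, *FOXN3*, *MDGA2*, *CDH10*, *VEPH1*, *AKAP6*, *ANK3*, *PLCE1*, *NR1D2* and *GRIK4*, from -1.59 to -1.15. *TENM2*, *DLG2*, *MDGA2*, *CDH10*, *ANK3* and *GRIK4* encode adhesion, scaffold or receptor proteins best known from neurons, *FOXN3* a forkhead repressor, and *NR1D2* the clock repressor REV-ERBβ.

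**Figure D1:**
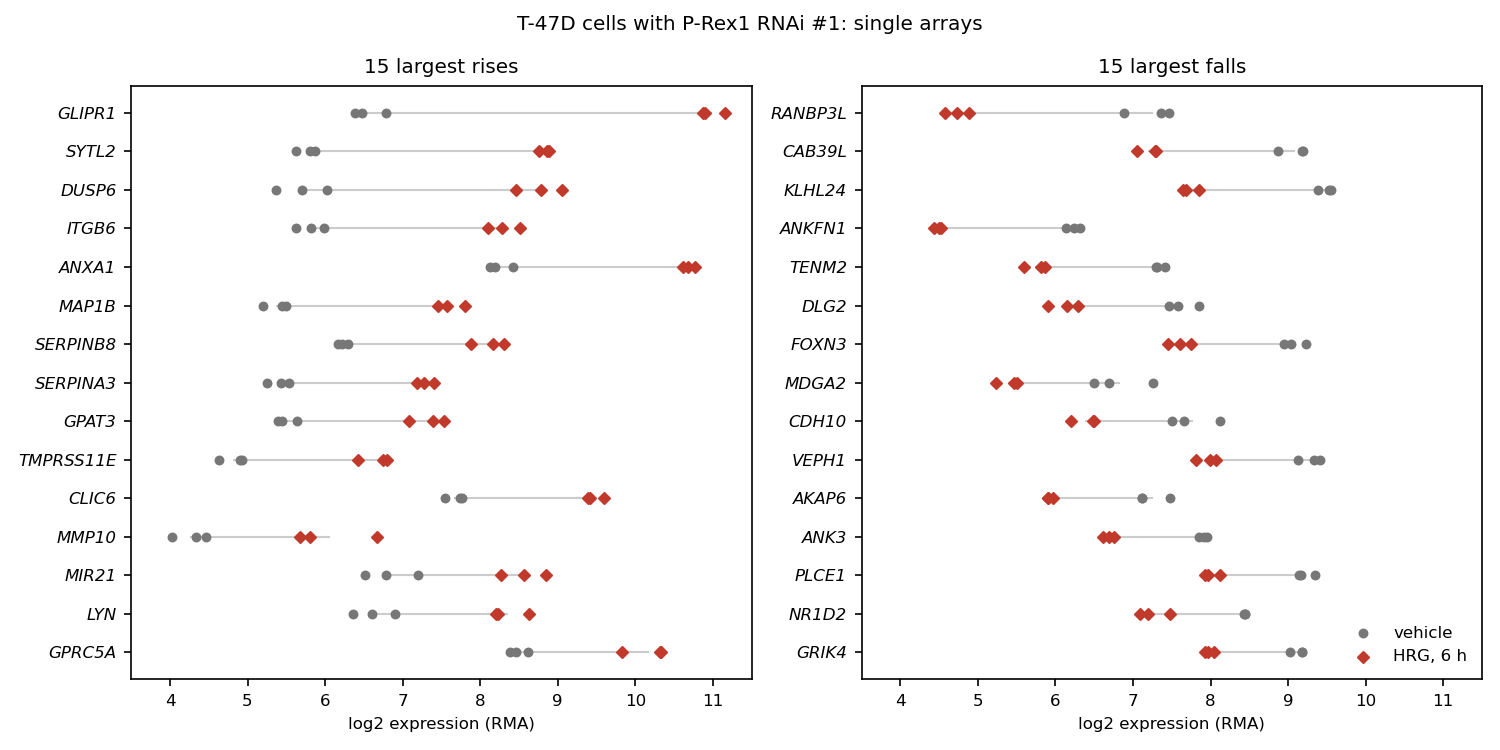
Log2 expression (x axis) of the 15 genes with the largest rises (left) and the 15 with the largest falls (right) on the 6 arrays with P-Rex1 RNAi #1; grey circles are vehicle arrays, red diamonds HRG arrays, and the line joins the group means. In all 30 genes the 3 HRG arrays lie on one side of the 3 vehicle arrays, from *GLIPR1* with an effect of 4.43 to *RANBP3L* with -2.51.

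All 30 of these genes were also called, in the same direction, in parental and in NTC cells. For the whole sets, 408 of the 530 higher probe sets were also called higher in parental cells (77.0% of the RNAi #1 set and 67.9% of the 601 parental ones) and 371 in NTC cells (70.0%, and 66.8% of 555). Of the 243 lower ones, 197 were called lower in parental cells (81.1%, and 38.9% of 507) and 208 in NTC cells (85.6%, and 29.3% of 709). None was called in the opposite direction. In parental cells 2.86% of all probe sets were called higher and 2.41% lower, and in NTC cells 2.64% and 3.37%.

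Sequences are shown for 5 genes described here in whose promoter a motif was found. They come from RefSeq on build GRCh38.p14 and are written 5′ to 3′ on the strand of the gene. Each covers the 120 bases before a start site whose promoter held the motif, with each motif match in capitals. *ACTG2* (smooth muscle γ-actin) and *FHL2* (a LIM protein) belong to the list of SRF and MRTF genes described below. The response of *ACTG2* differed from the controls, and for *FHL2* the difference was not called. *ITGB6* is the gene of the largest integrin rise. In these 3 the capitals mark a CArG box, the element SRF binds.

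ACTG2, chr2:73892888-73893007 (+): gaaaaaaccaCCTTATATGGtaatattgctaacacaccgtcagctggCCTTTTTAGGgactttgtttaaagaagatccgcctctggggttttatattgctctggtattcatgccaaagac
FHL2, chr2:105399052-105399171 (-): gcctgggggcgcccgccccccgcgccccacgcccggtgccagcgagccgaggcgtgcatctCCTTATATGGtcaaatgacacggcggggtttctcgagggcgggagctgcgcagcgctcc
ITGB6, chr2:160200273-160200392 (-): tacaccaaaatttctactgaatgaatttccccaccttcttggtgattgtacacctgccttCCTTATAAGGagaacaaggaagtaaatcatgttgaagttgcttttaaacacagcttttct

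In *RAET1L*, a ligand of the killer cell receptor NKG2D, and in *MMP10* the capitals mark an AP-1 site, searched as TGANTCA, the element that Jun and Fos proteins bind.

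RAET1L, chr6:150025533-150025652 (-): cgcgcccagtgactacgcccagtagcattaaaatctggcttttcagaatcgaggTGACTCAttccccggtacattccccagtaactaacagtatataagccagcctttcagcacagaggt
MMP10, chr11:102780629-102780748 (-): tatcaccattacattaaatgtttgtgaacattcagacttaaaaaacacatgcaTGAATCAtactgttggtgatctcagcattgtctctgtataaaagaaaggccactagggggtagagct

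These genes and start sites were chosen for display because a motif was found, so the matches are a description and no more. Both strands were searched over the 250 bases before and 50 after the start site. Of the 27305 genes with a promoter in the RefSeq table, 1.6% held a CArG box and 9.37% held TGANTCA (1.29% and 7.71% of its 35116 promoters). Of the 15 genes with the largest rises, 9 had a promoter in that table. Among them, 1 held a CArG box and 2 held TGANTCA, *MMP10* and *SERPINB8*. Of the 15 genes with a called smaller rise than in the controls, 13 had a promoter there, of which 1 held a CArG box (*ACTG2*) and 3 held TGANTCA (*ALOXE3*, *CALD1* and *RAET1L*).

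The probe set annotated *MIR21* reads RNA of that gene, and the arrays give no reading of the mature microRNA. It read 6.79, 6.51 and 7.20 with vehicle and 8.27, 8.57 and 8.85 with HRG, apart in all replicates. The mature sequence is shown with its seed (bases 2 to 8), which pairs with target RNAs, in capitals.

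hsa-miR-21-5p, chr17:59841273-59841294 (+): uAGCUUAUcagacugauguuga

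The genes that report ERK signalling formed the group with the most rises. Of 42 measured feedback and immediate early genes, 17 rose and none fell, and the median effect of the list was 0.50 against -0.033 over all probe sets. The feedback phosphatases *DUSP6* and *DUSP4* (3.06 and 1.65) and the Sprouty family inhibitors *SPRY4* (1.66) and *SPRED1* (1.45) led it. *SPRY4* read 5.02, 5.34 and 5.36 with vehicle and 6.60, 7.01 and 7.10 with HRG. Further rises were those of the transcription factors *KLF4* (1.40), *ETV4* (0.88), *KLF10* (0.86), *JUNB* (0.81) and *KLF6* (0.80), of *SPRED2* (0.97), *SPRY2* (0.77) and *DUSP7* (0.71), and of *CCND1* (0.77), which encodes cyclin D1. No member of the list had an HRG effect that differed from the controls by the same rule, and the median effect of the list was 0.37 in parental and 0.38 in NTC cells.

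Ligands and receptors of the ErbB family moved in both directions. Of 23 measured, 4 rose and 2 fell. The ligand genes *EPGN* (epigen), *HBEGF* and *EREG* (epiregulin) rose by 1.65, 1.35 and 0.77, and *ERRFI1*, the intracellular inhibitor of the receptors, rose by 1.21. *ERBB3*, the receptor that binds HRG, read 10.11, 9.99 and 10.06 with vehicle and 9.48, 9.37 and 9.43 with HRG, without overlap. It fell by 0.62, and *LRIG1*, which promotes degradation of the receptors, fell by 0.72.

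In the lists of cell adhesion, matrix and chemotaxis genes every call was a rise, and the medians of 0.10, 0.02 and 0.04 were those of lists in which most members were not called. 8 of 30 integrin and focal adhesion genes rose (7 without vehicle replicate 2), among them *ITGB6* (2.49), the tensin *TNS4* (1.60), *ITGA2* (1.33), the α2 chain of collagen receptors, and *ITGA5* (1.05), the α5 chain of the fibronectin receptor. 6 of 45 matrix proteases and inhibitors rose, including *SERPINA3*, *SERPINB8*, *MMP10*, *TIMP1* (1.60), the inhibitor of metalloproteinases, and *MMP1* (1.47), interstitial collagenase. Of 36 chemokine, cytokine and chemotaxis receptor genes, 7 rose (with 1 fall without vehicle replicate 2), led by *IL6R* (1.51), *CXCR4* (1.15), the receptor of the chemokine SDF-1, *IL18* (0.94) and *LIFR* (0.91). *CXCR4* read 6.42, 6.37 and 6.45 with vehicle and 7.38, 7.62 and 7.68 with HRG. *MMP10* read 4.02, 4.46 and 4.34 with vehicle and 5.68, 5.81 and 6.67 with HRG, with HRG replicate 3 well above the other two.

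10 of 30 basal keratinocyte and cornified envelope genes rose (8 without vehicle replicate 2), with *SPRR1A* (1.56), *KRT15* (1.16), *KRT7* (0.97) and *KRT13* (0.96) the most. Of 37 TGF-β, activin and BMP pathway genes, 8 rose, among them the ligand *TGFB2* (1.18) and the BMP target genes *ID1* (1.12) and *ID2* (0.75), with *BMPR1B* (0.74), a BMP receptor. Without vehicle replicate 2 of RNAi #1 this count was 5, and *BMPR1B* (0.57) was among those under the fold limit. Of 24 YAP/TEAD target genes, 3 rose, *TGFB2*, *DOCK5* (0.72) and *CCN1* (0.59), and without the same array 2 did, *CCN1* then being at 0.48. Of 44 NF-κB and TNF target genes, 5 rose, *TRAF3* (0.92), *PLK3* (0.83), *MAP3K14* (0.68), *TNFAIP3* (0.66) and *NFKB2* (0.59), and without HRG replicate 3 *MAP3K14* (0.56) and *TNFAIP3* (0.58) were under the fold limit. Of 37 interferon-stimulated genes, *GBP2* (0.86, with 0.50 on a probe set that was not called) and *IFIT5* (0.80) rose, and *MX2* fell by 0.60, with its value under the fold limit when vehicle replicate 1, vehicle replicate 3 or HRG replicate 1 was left out (-0.58, -0.56 and -0.52).

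7 of 35 MYC target and ribosome biogenesis genes rose, and the list had a median effect of 0.42. *ODC1* (0.99), the first enzyme of polyamine synthesis, *RRP12* (0.86), *RRS1* (0.81) and *LYAR* (0.79), all factors of ribosome assembly, led it. None of the 26 measured ribosomal protein genes was called, with a median of 0.03. 8 of 31 glycolysis and hypoxia-response genes rose, including *HK2* (hexokinase 2), which read 8.18, 8.33 and 8.29 with vehicle and 9.41, 9.44 and 9.45 with HRG, an effect of 1.16. *EGLN3* (1.13), an oxygen-sensing hydroxylase, *PFKP* (1.12), the platelet phosphofructokinase, and *PFKFB3* (0.83), which makes its activator, also rose. 3 of 28 sterol and fatty acid synthesis genes rose, *GPAT3*, *ELOVL6* (0.82), a fatty acid elongase, and *LPIN1* (0.79), a phosphatidate phosphatase.

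4 of 31 ATF4 and amino acid response genes rose, *GDF15* (1.04), a stress cytokine, the transporters *SLC7A1* (0.78) and *SLC7A11* (0.70), and *VLDLR* (0.77). *SLC7A11* was at 0.58 without HRG replicate 2, and *VLDLR* at 0.53 with array weights. 7 of 24 p53 target genes rose (with 1 fall without vehicle replicate 2), among them *GDF15*, *AEN* (0.94), an apoptosis-linked nuclease, and the kinases *PLK2* (0.87) and *PLK3* (0.83). None of 29 unfolded protein and heat shock genes was called, and the highest effects were those of *EDEM1* (0.56) and *HSPH1* (0.48). *EDEM1* passed the fold limit without vehicle replicate 1 (0.61) or HRG replicate 1 (0.59). Of 20 BCL2 family genes, the BH3-only genes *PMAIP1* (0.74) and *BMF* (-0.64) were called in opposite directions, with *BMF* at -0.58 without HRG replicate 2.

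Of 40 genes of nerve cell adhesion and cadherins, 7 fell and 1 rose, and 35 of the 40 had a negative effect. *TENM2* (-1.59), a teneurin, read 7.41, 7.30 and 7.31 with vehicle and 5.86, 5.81 and 5.59 with HRG. Of 37 FOXO-induced and growth-factor-repressed genes, 6 fell and 2 rose, 7 and 2 without vehicle replicate 2, and the median was -0.17. *KLHL24* (-1.76), *FBXO32* (-0.75), the atrogin ubiquitin ligase, and *PDCD4* (-0.72), an inhibitor of translation, fell, and *IRS1* (0.77), the insulin receptor adaptor, rose. In the estrogen receptor and luminal list, *ESR1* fell by 0.79 and *TFF1* rose by 0.63, of 29 measured. *ESR1* has a dimmer probe set that was not called (-0.14).

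Of 20 core clock genes, *NR1D2* (-1.19) and *PER3* (-0.70) fell, and *RORA* (0.78, read near the background), *CRY1* (0.77) and *NFIL3* (0.62) rose, with 2 rises without vehicle replicate 2. Of 27 Notch pathway genes, *MAML2*, a coactivator of Notch, had an effect of -0.94 and the receptor *NOTCH1* one of 0.81. None of 29 mitotic genes was called, with *ASPM* called without HRG replicate 1 (-0.64). Among the 29, 26 had a negative effect, and the median was -0.17 against -0.35 in parental and -0.48 in NTC cells. Of 40 G1/S and replication genes, 1 rose, *CCNE1* (0.71), which encodes cyclin E1. That is 2.5%, near the 2.52% of all probe sets. The list had a median of -0.11 against -0.34 and -0.43. Whether these list medians differed was not tested.

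**Figure D2:**
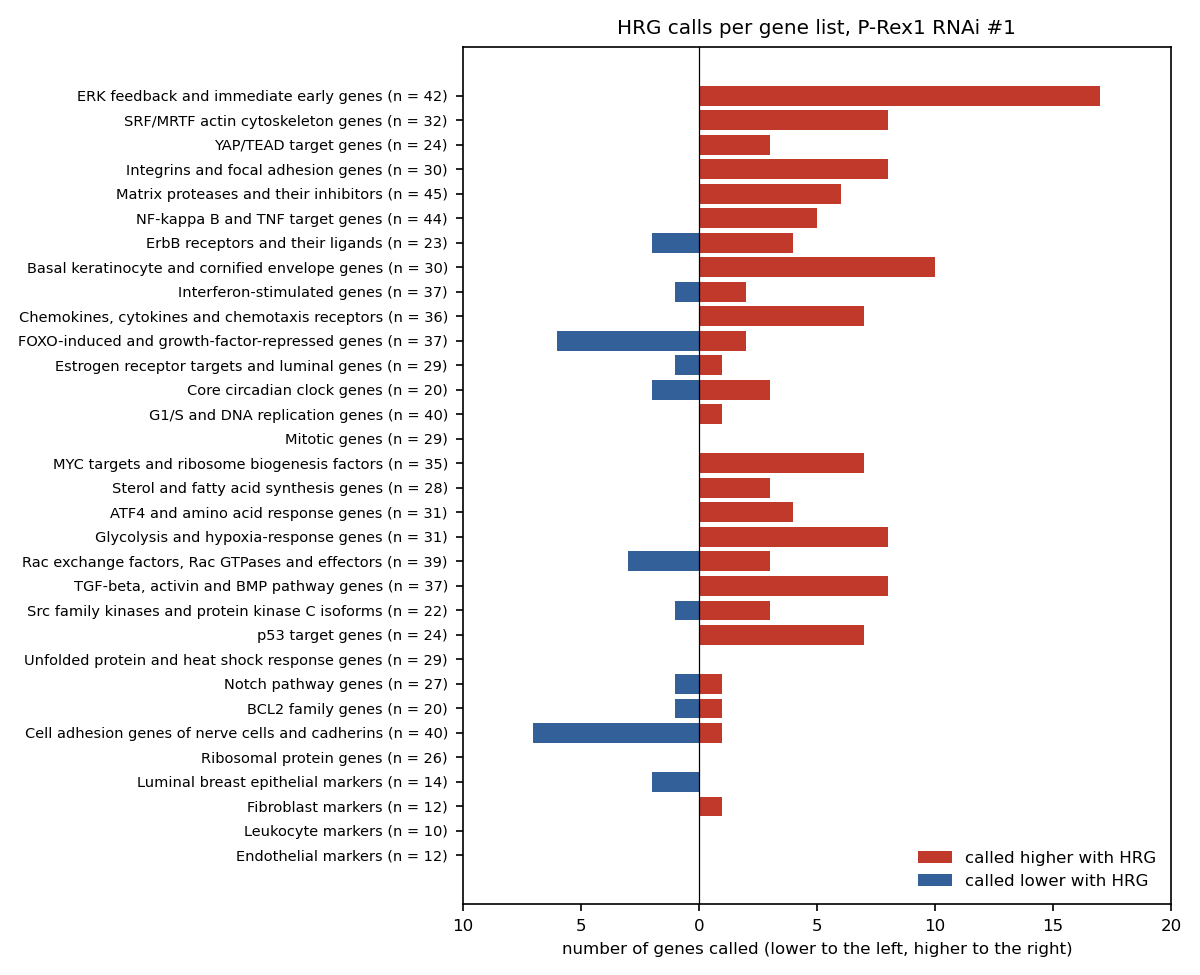
Number of genes called higher (red, to the right) or lower (blue, to the left) with HRG in cells with P-Rex1 RNAi #1, for each gene list, with the number of measured members in brackets. The ERK list has the most rises, 17 of 42, and the list of nerve cell adhesion genes and cadherins the most falls, 7 of 40; among all probe sets 2.52% were higher and 1.15% lower.

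Among Rac exchange factors, GTPases and effectors, 3 of 39 rose and 3 fell. The exchange factors *DOCK10* (1.08) and *DOCK5* (0.72) and the GTPase-activating gene *SRGAP1* (1.03) rose, and *ARHGAP15* (-1.07), a Rac-directed GTPase-activating gene read near the array background, fell together with *ARHGEF6* (-0.60) and *SOS1* (-0.62). Of 22 Src family and protein kinase C genes, *LYN* (1.73), *FRK* (0.85) and *PRKCA* (0.68) rose and *PRKCE* fell by 0.74. Of the 11 measured genes that the study named in its array results, 9 were still called higher with RNAi #1, a list that was chosen on these same arrays. *APOBEC3G* had an effect of -0.03 and *PREX1* one of -0.46. *GBP1* and *TP63*, also on that list, had no probe set with a single symbol and were not counted.

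Of 32 measured actin cytoskeleton genes that SRF and MRTF control, 8 rose with RNAi #1, 11 in parental and 12 in NTC cells. The list held 4 genes whose HRG effect was called smaller than in the controls. Over all probe sets, 0.0903% had a called difference in the negative and 0.0808% in the positive direction. The median effect of the list was 0.29 against 0.32 in the controls. The integrin, matrix protease, NF-κB, chemokine and sterol lists held 1 smaller effect each, and the ATF4 and p53 lists 1 larger one, *GDF15* in both. No test compared the lists. For *ZYX*, *VCL*, *PDLIM5* and *FHL2* the difference was not called. *ZYX* (zyxin) read 7.77, 7.70 and 7.62 with vehicle and 9.28, 9.27 and 9.40 with HRG, an effect of 1.62 against 1.63 in parental and 1.81 in NTC cells. *VCL* (vinculin) read 9.50, 9.46 and 9.49, and 10.80, 10.98 and 10.92, with an effect of 1.42 against 1.62 in both. *PDLIM5* (1.09) and *FHL2* (1.01) also rose. The differences from the mean of the controls were -0.10 (SE 0.10), -0.21 (SE 0.08), -0.10 (SE 0.13) and -0.23 (SE 0.10), none of which was called.

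The 4 genes with a smaller effect were *ACTG2*, *ACTA2*, *CALD1* and *CNN1*. *ACTG2* read 4.92, 5.13 and 5.15 with vehicle and 5.25, 5.19 and 5.24 with HRG, and although the groups did not overlap the effect was 0.16 (limma adjusted p = 0.393). It was 1.26 in parental and 1.19 in NTC cells, and the difference was -1.06 (SE 0.16; limma adjusted p = 0.00339). *ACTA2*, smooth muscle α-actin, read 7.57, 7.45 and 7.74, and 7.92, 7.74 and 8.02, so that the lowest HRG array equalled the highest vehicle array to 2 decimals. Its effect of 0.31 compared with 1.07 and 1.18 in the controls (difference -0.82, SE 0.12; limma adjusted p = 0.00224). Its vehicle mean was also lower with RNAi #1, at 7.59 against 8.07 in parental and 7.98 in NTC cells.

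*CALD1* and *CNN1*, which encode the actin-binding proteins caldesmon and calponin 1, were still called but rose less. *CALD1* read 7.02, 6.91 and 7.20 with vehicle and 7.63, 7.85 and 7.98 with HRG, an effect of 0.78 against 1.63 and 1.79 (difference -0.93, SE 0.13; limma adjusted p = 0.00115). *CNN1* read 5.81, 5.99 and 5.93, and 6.71, 6.75 and 6.84, an effect of 0.86 against 1.56 and 1.89 (difference -0.87, SE 0.12; limma adjusted p = 0.00115). Both pairs of groups were apart. *MICAL2*, an actin-oxidising enzyme outside the list, read 6.87, 6.93 and 6.85, and 6.85, 6.71 and 6.83, so that the highest HRG array equalled the lowest vehicle array. Its effect was -0.09 against 0.60 and 0.59 (difference -0.68, SE 0.08; limma adjusted p = 0.000344).

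**Figure D3:**
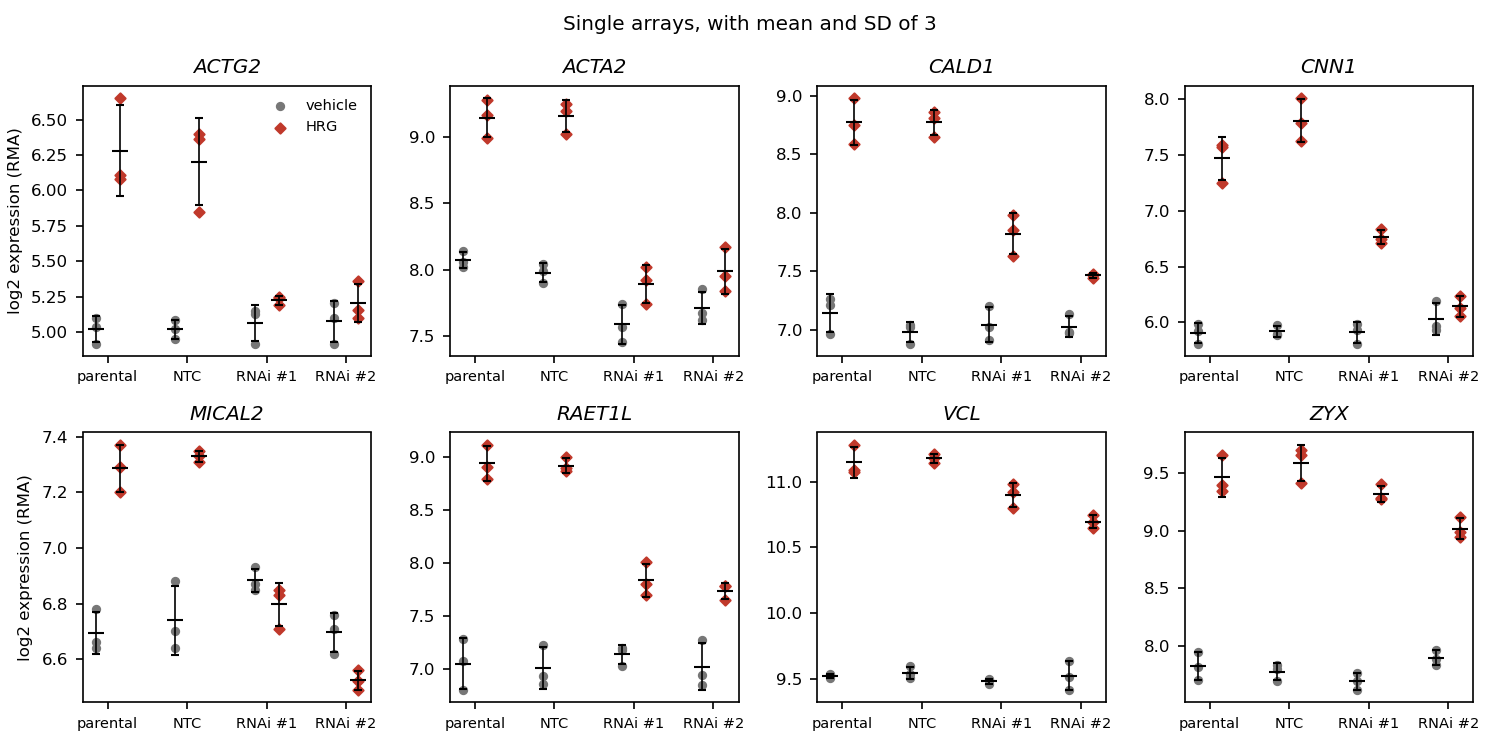
Log2 expression of 8 genes on single arrays in the 4 kinds of cells; grey circles are vehicle arrays, red diamonds HRG arrays, and bars give the mean and SD of 3, with each panel on its own y axis. In *ACTG2*, *ACTA2* and *MICAL2* the HRG arrays of RNAi #1 lie close to its vehicle arrays, with effects of 0.16, 0.31 and -0.09, whereas *VCL* and *ZYX* rise by 1.42 and 1.62.

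Across all probe sets, few differences of the HRG effect with RNAi #1 from the mean of the parental and NTC effects were called. The difference was called in the positive direction for 17 probe sets (0.0808%) and in the negative direction for 19 (0.0903%). Of these 36, 16 were smaller rises, 11 smaller falls, and 9 had no call in the averaged controls. With no fold limit, 151 positive and 93 negative differences had a limma adjusted p under 0.05. At an unadjusted p under 0.05 the limma counts were 2251 and 1722. The count of 17 depended on single arrays and lay between 6 (without vehicle or HRG replicate 2 of RNAi #1) and 30 (without vehicle replicate 1). It was 9 without NTC vehicle replicate 1, 27 without NTC HRG replicate 2 and 11 without NTC HRG replicate 3. The count of 19 went from 12 (without HRG replicate 1 of RNAi #1) to 28.

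The largest difference was that of *RAET1L*. It read 7.20, 7.18 and 7.03 with vehicle and 7.80, 7.70 and 8.01 with HRG, apart in all replicates. The effect of 0.70 was well under the 1.89 and 1.91 of parental and NTC cells (difference -1.20, SE 0.15; limma adjusted p = 0.000605). A probe set shared by *GBP1*, *GBP3* and *GBP1P1* rose by 2.08 against 3.05 and 3.20 (difference -1.05, SE 0.19; limma adjusted p = 0.0135). Such a shared probe set cannot tell its genes apart, and it is left out of the named genes. Other smaller rises included those of *GPAT3* (1.84 against 2.52 and 2.67), *ITGA2* (1.33 against 1.97 and 1.86) and *MMP1* (1.47 against 2.17 and 2.00). *TNFAIP3*, a brake on NF-κB, rose by 0.66 against 1.41 and 1.16, and *LOC151760* by 1.35 against 1.93 and 2.44. *MMP10* rose by 1.78 against 2.41 and 2.51, a difference that was not called (-0.67, SE 0.24; limma adjusted p = 0.142). Without HRG replicate 3 of RNAi #1 the *MMP10* difference was called, at -0.98 (limma adjusted p = 0.0206). With array weights it was also called, at -0.77 (limma adjusted p = 0.0276).

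Falls were reduced in a further set. *LRRN3*, a neuronal leucine-rich repeat protein, read 10.28, 10.30 and 10.29 with vehicle and 10.33, 10.53 and 10.28 with HRG, which overlap. Its effect was 0.09 against -0.73 and -0.67 (difference 0.79, SE 0.11; limma adjusted p = 0.00224). *STEAP4*, a metalloreductase, had an effect of -0.55 against -1.23 and -1.69 (difference 0.91; limma adjusted p = 0.0114). *BLNK*, an adaptor protein, still fell, by 0.98, with the controls at -1.54 and -1.69. *PLA2G4A* (cytosolic phospholipase A2, read near the background, -0.40 against -1.01 and -1.10), *CTH* (an enzyme of cysteine synthesis, 0.01 against -0.61 and -0.68), *GLRB* (-0.54 against -0.93 and -1.38) and *CFAP206* (-0.63 against -1.22 and -1.30) followed.

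*CALCR* and *GDF15* rose with RNAi #1 and were not called in the controls. *CALCR*, the calcitonin receptor, read 8.09, 8.14 and 8.21 with vehicle and 8.87, 9.15 and 9.10 with HRG. Its effect of 0.90 stood against 0.15 and 0.26 (difference 0.69, SE 0.12; limma adjusted p = 0.0113). *GDF15* read 6.96, 6.91 and 7.07, and 7.78, 8.15 and 8.14, an effect of 1.04 against 0.36 and 0.46 (difference 0.63; limma adjusted p = 0.0279). Its vehicle mean was lower with RNAi #1, at 6.98 against 7.47 in parental and 7.44 in NTC cells. The HRG means were 8.02, 7.84 and 7.90 in the same order. With RNAi #2 *CALCR* (0.60) and *GDF15* (0.79) were also called higher, and neither HRG effect differed between the duplexes by the same rule. The *GDF15* means with RNAi #2 were 7.71 with vehicle and 8.5 with HRG, both above those of the controls. Among the genes named here, another 3 had a called difference and no call in either the RNAi #1 or the control effect. The same held for further probe sets that are not named. *NPY5R*, a neuropeptide Y receptor, had 0.56 against -0.02 and -0.13. *SNORA70C* (-0.34, read near the background) and *TRIM61* (-0.45) had positive values in the controls, 0.35 in both for the first and 0.29 and 0.15 for the second.

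Of the 26 genes named here for a difference from the controls, 8 kept their call under every alternative run on single genes, namely *RAET1L*, *ACTG2*, *ACTA2*, *CALD1*, *CNN1*, *MICAL2*, *LRRN3* and *CALCR*. The others lost it in at least 1. Without vehicle replicate 2 of RNAi #1 the adjusted p of *STEAP4* was 0.0562, of *GDF15* 0.0958 and of *GPAT3* 0.0921. With NTC cells alone as control, *ITGA2* (limma adjusted p = 0.0699), *MMP1* (0.0983) and *TNFAIP3* (0.0699) were not called, nor were *ITGA2* (0.0706) and *MMP1* (0.0846) with parental cells alone.

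**Figure D4:**
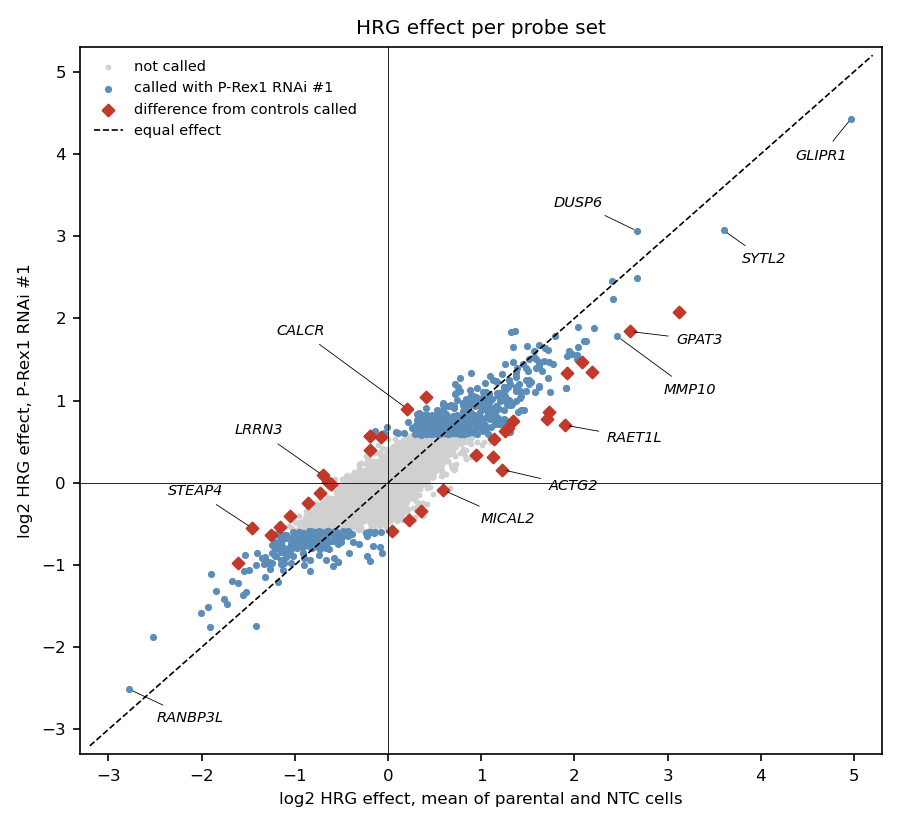
HRG effect (log2) of each of 21042 probe sets in the controls, averaged over parental and NTC cells (x axis), and with P-Rex1 RNAi #1 (y axis); blue points were called with RNAi #1, red diamonds are the 36 probe sets whose difference from the controls was called, and the dashed line marks equal effects. *ACTG2* and *RAET1L* lie under the line and *LRRN3*, *STEAP4* and *CALCR* above it.

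Sets called in one kind of cell and not in another mostly held weaker changes in the same direction. Of the higher probe sets, 98 were called in neither control, and 94 of these had a positive effect in both. Their median was 0.67 with RNAi #1 and 0.41 in the controls. The difference had a limma adjusted p under 0.05 for 12 of them, and 2 also passed the fold limit, *GDF15* and *CALCR*. Of the lower ones, 27 were called in neither control, and 1 passed both limits for the difference, *DOC2B* (-0.59). In the other direction, 101 probe sets were called higher in both controls and not with RNAi #1. Of these, 90 still had a limma adjusted p under 0.05 with RNAi #1 and missed the fold limit. The difference had a limma adjusted p under 0.05 for 21 of the 101. It was called, with the fold limit, for 5, *ACTA2*, *ACTG2*, *MICAL2*, *SCNN1G* (0.53) and *CCL22* (0.34). *DOC2B*, *SCNN1G* and *CCL22* were named after their values were seen. Another 222 were called lower in both controls and not with RNAi #1. Of these, 209 had an HRG effect with an adjusted p under 0.05, and the median over the 222 was -0.45 against -0.72 in the controls. The difference had a limma adjusted p under 0.05 for 36 and was called for 7.

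Fewer probe sets were called with the other duplex. With P-Rex1 RNAi #2, 226 probe sets (1.07%) rose and 138 (0.656%) fell. Of the 226, 211 were among the 530 of RNAi #1, which is 93.4% of the first and 39.8% of the second set, and 107 of the 138 were among the 243 (77.5% and 44.0%). *PREX1* read between 8.97 and 9.03 on the 3 vehicle arrays of RNAi #2 and between 8.91 and 9.09 with RNAi #1, which overlap. After HRG it read 8.83, 8.57 and 8.80 with #2 and 8.60, 8.45 and 8.55 with #1, overlapping by one array.

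A test of the difference between the duplexes called 13 probe sets (0.0618%), all with the larger effect in RNAi #1, and 0 with the larger effect in #2. At an unadjusted p under 0.05 the limma counts were 862 and 713. *MMP1* had an effect of 1.47 with #1 and 0.20 with #2 (difference 1.27, SE 0.16; limma adjusted p = 0.00153). With #1 it read 4.06, 3.83 and 3.80 with vehicle and 5.14, 5.35 and 5.60 with HRG, without overlap and, on the vehicle arrays, near the background. *MAP1B* had 2.23 and 1.00 (difference 1.23, SE 0.20; limma adjusted p = 0.0133), and *SYTL2* 3.07 and 2.07 (difference 1.00, SE 0.15; limma adjusted p = 0.00853).

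The rest were *TMPRSS11E* (difference 0.96 on both its probe sets), *PRG4* (0.86), lubricin, *ANXA1* (0.84), *ALDH1A3* (0.83), a retinaldehyde dehydrogenase with a dimmer probe set that was not called (-0.16), *LMO7* (0.75), *CNN1* (0.74), *SERPINB8* (0.74), *CYTH3* (0.71) and *OPN3* (0.60). *CYTH3* and *OPN3* fell outside the rule for named genes and were added after their values were seen. The count of 13 was 1 without HRG replicate 3 of RNAi #1, where *MMP1* alone was called. It was 5 without HRG or vehicle replicate 2 of RNAi #1, 6 without HRG replicate 2 or vehicle replicate 1 of RNAi #2 and 8 without vehicle replicate 3 of RNAi #2. Of the 4 actin cytoskeleton genes with a smaller effect than in the controls, this test called *CNN1* alone. The difference was 0.04 (SE 0.19) for *ACTG2*, 0.03 (SE 0.14) for *ACTA2* and 0.34 (SE 0.13) for *CALD1*, none of them called. For *RAET1L* it was -0.02 (SE 0.17), also not called.

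**Figure D5:**
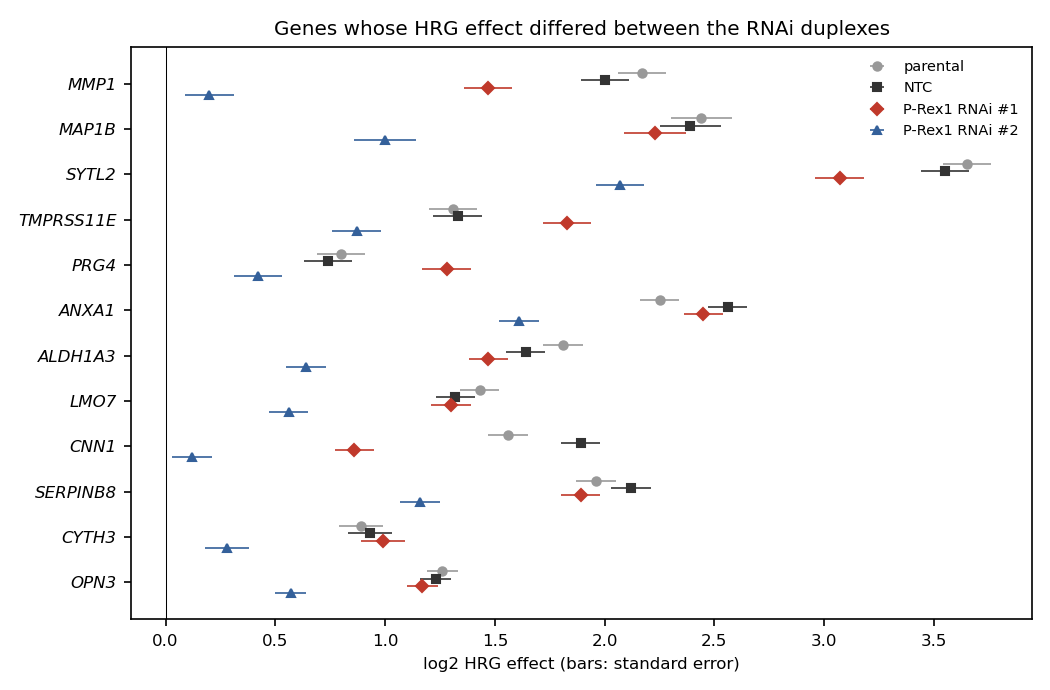
HRG effect (log2, with standard error) in parental cells, NTC cells and cells with each P-Rex1 duplex for the 12 genes whose effect was called different between RNAi #1 and #2. In all 12 the blue triangle of #2 lies to the left of the red diamond of #1, most widely in *MMP1*, with 0.20 and 1.47.

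Marker lists of cell types were read in the same 6 arrays. Of 14 luminal breast epithelial markers, *ESR1* and *ERBB3* fell and none rose, and their summed log2 value was 152.14 to 152.34 with vehicle and 150.82 to 151.07 with HRG. None of 10 leukocyte or 12 endothelial markers was called, with *CD68* called without vehicle replicate 2 (0.62) or HRG replicate 1 (0.63). Leukocyte and endothelial lists had sums of 47.11 to 49.40 and 58.41 to 60.88 with vehicle and 47.89 to 48.29 and 58.41 to 59.05 with HRG. Of 12 fibroblast markers, *LUM* (lumican) rose by 1.20, and the sum was 60.29 to 62.09 with vehicle and 61.26 to 61.92 with HRG. Their part in the results was not tested.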

How the data were processed

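RNA of 24 T-47D samples was hybridised to Human Gene 1.0 ST arrays from Affymetrix. The deposited values are log2 expression, which the authors background-corrected, normalized and summarised with RMA (version and genome build not given in the sources used here). Of 28536 probe sets, the platform annotation gave 19292 a single symbol, 1750 several and 7494 none. The 21042 with a symbol were tested, and genes were named from single-symbol probe sets, by the brightest of each gene. Columns not used numbered 0.

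One linear model with a mean per group was fitted to all 24 arrays with limma 3.58.1 under R 4.3.3 (with statmod 1.5.0 for the robust variance alternative), followed by Benjamini-Hochberg adjustment. Calls needed an adjusted p under 0.05 and a fold over 1.5. The difference from controls was the HRG effect with RNAi #1 minus the mean of the parental and NTC effects. *PREX1* was also tested by exact permutation (Python 3.11.15, scipy 1.17.1). Figures were drawn in matplotlib 3.10.9.

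Named were *PREX1* and the genes the study names, the 15 largest rises and falls without overlap between arrays, up to 4 called members per list (the 1 or 2 largest effects where none was called), and the 10 largest called differences in each direction. Further list members are named with their values. The members and gene lists were chosen with earlier results of these data known. Replicates are labelled biological, and nothing more is said of their origin. Precision is limited by how few arrays there are, and RMA shrinks differences at dim probe sets. The fit was tested on simulated data. Sequences were matched by gene ID to RefSeq tables. Alternatives covered thresholds, filters, weights, centring, control choice, replicate blocks, Rank Products and leaving out arrays. Gene list counts without vehicle replicate 2 of RNAi #1 and with centred arrays were chosen after seeing the data.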

Additional observations from a re-analysis of the deposited data

Results flagged for a closer look

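Each gene below is one named above for which the test of the difference between kinds of cells, an interaction term in limma, was called. Against the controls 36 probe sets were called in all, and some of their genes, such as *MCAM* (-0.62) and *GRPR* (0.61), are not listed. Against the mean of parental and NTC cells, the HRG effect with P-Rex1 RNAi #1 was lower on the log2 scale for *RAET1L* (-1.20), *ACTG2* (-1.06), *CALD1* (-0.93), *CNN1* (-0.87), *LOC151760* (-0.84), *ACTA2* (-0.82), *GPAT3* (-0.75), *SNORA70C* (-0.69), *MICAL2* (-0.68), *TRIM61* (-0.67), *DOC2B* (-0.63), *TNFAIP3* (-0.62), *MMP1* (-0.61), *SCNN1G* (-0.61), *CCL22* (-0.60) and *ITGA2* (-0.59). It was higher for *STEAP4* (0.91), *LRRN3* (0.79), *CALCR* (0.69), *PLA2G4A* (0.66), *CTH* (0.65), *NPY5R* (0.64), *BLNK* (0.63), *GDF15* (0.63), *CFAP206* (0.63) and *GLRB* (0.62).

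Against P-Rex1 RNAi #2, the HRG effect with RNAi #1 was higher for *MMP1* (1.27), *MAP1B* (1.23), *SYTL2* (1.00), *TMPRSS11E* (0.96), *PRG4* (0.86), *ANXA1* (0.84), *ALDH1A3* (0.83), *LMO7* (0.75), *CNN1* (0.74), *SERPINB8* (0.74), *CYTH3* (0.71) and *OPN3* (0.60). *CNN1* and *MMP1* were called in both tests. The effects of *CNN1* were 1.56 in parental and 1.89 in NTC cells, 0.86 with #1 and 0.12 with #2, and those of *MMP1* were 2.17, 2.00, 1.47 and 0.20.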

How the results depend on the processing

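With RNAi #1, 3138 probe sets rose and 2609 fell with no fold limit, 117 and 23 at a fold over 2, and 471 to 595 and 216 to 301 with single arrays left out. For the difference from the controls, an adjusted p under 0.01 left 4 higher and 6 lower. The counts were 151 and 93 with no fold limit, 0 and 3 at a fold over 2, and 6 and 12 with parental cells alone as control. Array weights gave 31 lower. Leaving out single arrays gave 6 to 30 higher and 12 to 28 lower. For the difference from RNAi #2, 4 probe sets were higher at an adjusted p under 0.01 and 2 at a fold over 2. Array weights gave 1 lower. Leaving out single arrays gave 1 to 16 higher and 0 to 1 lower. *PREX1* in vehicle arrays was lower by 1.57 to 1.48 on the log2 scale (-1.57 to -1.48) without single arrays. Replicate numbers were not taken as pairs, since not every correlation between same-numbered arrays was over 0.1. They were 0.254, -0.053 and 0.192 with RNAi #1, 0.123, 0.144 and 0.246 in parental cells, 0.143, 0.041 and 0.241 in NTC cells and 0.388, 0.295 and 0.217 with RNAi #2. Correlations between differently numbered arrays were mostly negative, from -0.352 (RNAi #2) to 0.165 (NTC cells). With the replicate block, the difference from the controls had 35 lower probe sets, and that from RNAi #2 had 24 higher and 1 lower. With the block within each kind of cell these were 32 lower and 1 lower. That block ended the calls of *MMP1* (limma adjusted p = 0.059) against the controls and of *LMO7* (0.0858) and *SERPINB8* (0.0928) against RNAi #2, and both blocks called *CAB39L* (0.66) against the controls. Neither block changed a call of a named gene in the HRG effect with RNAi #1, and for *PREX1* between kinds of cells the block within each kind was not run, as it leaves no contrast. The cause of these moves was not tested, apart from the thresholds. Rank Products at an unadjusted p under 0.005 gave 530 higher and 245 lower, and after Benjamini-Hochberg adjustment 430 and 239. Of 138 named probe sets, called or not in the HRG effect, all but 15 kept that state under every alternative run on single genes. Changes of threshold and Rank Products were run on counts alone and are not part of this.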
